A study of Mus musculus with 6 samples.

Results

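The Myc network is a group of 10 genes for transcription factors that compete for the same partner and the same DNA sites, *Myc*, *Mycn*, *Mycl*, *Max*, *Mxd1*, *Mxd4*, *Mxi1*, *Mnt*, *Mga* and *Mlx*. They were chosen by name among the 21938 protein-coding genes of the mouse annotation. Every peak of histone H3 lysine 56 acetylation (H3K56ac) in the body of each gene and in the 100 kb on either side was collected, which gave 37 of the 11106 peaks of the whole set. No peak lay in the windows of more than 1 gene. *Myc*, *Mycn* and *Mycl* were treated as activators, *Mxd1*, *Mxd4*, *Mxi1*, *Mnt* and *Mga* as antagonists, and *Max* and *Mlx* as shared partners.

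The cells were undifferentiated V6.5 mouse embryonic stem cells (mESCs), plated on a layer of feeder cells. They were infected with lentivirus that carried either a scrambled short hairpin RNA (Scramble) or one against *Sirt6* (Sirt6KD), the gene of a nuclear deacetylase, so the control cells had also been infected. The paper describes selection with puromycin after infection for the knockdown. H3K56ac was profiled by ChIP-seq in 2 Scramble and 2 Sirt6KD libraries, each condition with 1 input library. The deposited result is 1 peak set merged over the libraries. A peak therefore has a position and a width, but no height, no library and no condition, and no comparison of Sirt6KD with Scramble, no replicate error and no test could be made from it, nor could the knockdown be checked. The paper lists more peaks in each Sirt6KD library than in either Scramble library and reports a global increase of H3K56ac peaks after the knockdown. Some merged peaks or widths may therefore come from the Sirt6KD cells alone, and the set does not describe control cells. No 2 peaks of the set lay closer than 1000 bp, so peaks with shorter gaps between them may have been joined, and a width may include bases that were not called as enriched. The number of reads behind a peak is unknown. A gene without a peak is a gene at which no peak was listed, and is not a gene shown to lack the mark. All 8 markers of embryonic stem cells had a peak at a transcription start site, with a median width of 4949.5 bp and the widest, 9909 bp, at *Sox2*. Of 11 fibroblast markers, chosen for the feeder layer, 0 had one. For random draws this would allow a share of up to 27.3%, but the markers were picked by name. The share was 35.7% over all protein-coding genes and 60.4% over those with promoters rich in CpG (defined below). Only 2 of the 11 markers had such promoters, so the count does not measure feeder cells in the samples.

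MYC, MYCN and MYCL bind DNA as dimers with MAX, at a short sequence called the E-box (CACGTG), and raise transcription of genes for ribosomes, nucleotide synthesis and cell division. MXD1, MXI1, MXD4 and MNT take the same partner to the same sites and recruit SIN3 and histone deacetylases, which lowers transcription. MGA also pairs with MAX and carries it into a repressive Polycomb complex that keeps germ cell genes off in embryonic stem cells. MLX is a second partner, used by MXD1, MXD4 and MNT and by the glucose-responsive factors MLXIP and MLXIPL. In mESCs, *Myc* is a target of LIF signalling through STAT3, and loss of *Myc* and *Mycn* together arrests proliferation in a reversible, dormant state. H3K56ac is found at active promoters and enhancers.

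The start sites of the network genes are shown first, since the E-box bound by the network's own dimers can be read in them. RefSeq promoter windows of GRCm38.p6, which run from 250 bases before a transcription start site (TSS) to 50 bases after it, were matched for 9 of the 10 genes, and *Myc* had no entry. Of those 9 genes, 4 held the E-box, which is 44.4%, and it stood in 36.4% of their 11 windows. Over all 32851 windows of the table the share was 7.15%, counted per window like the 36.4%. This background was not matched for CpG content, and the E-box itself holds a CpG. The 4 windows with a match are given with that of *Mycn*, the gene with the widest peak, which has none. Each runs 5′ to 3′ on the strand of its gene, and capitals mark the E-box. The locations are chr12:76962199-76962498 on the minus strand for *Max*, chr11:101087040-101087339 on the plus strand for *Mlx*, chr11:74830674-74830973 on the plus strand for *Mnt*, chr5:34187661-34187960 on the minus strand for *Mxd4* and chr12:12941787-12942086 on the minus strand for *Mycn*.
Max: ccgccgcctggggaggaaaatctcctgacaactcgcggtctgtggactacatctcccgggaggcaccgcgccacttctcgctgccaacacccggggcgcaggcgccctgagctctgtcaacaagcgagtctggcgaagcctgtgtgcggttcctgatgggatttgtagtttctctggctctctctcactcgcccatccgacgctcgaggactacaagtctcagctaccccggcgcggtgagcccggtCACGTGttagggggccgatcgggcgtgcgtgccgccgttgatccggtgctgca
Mlx: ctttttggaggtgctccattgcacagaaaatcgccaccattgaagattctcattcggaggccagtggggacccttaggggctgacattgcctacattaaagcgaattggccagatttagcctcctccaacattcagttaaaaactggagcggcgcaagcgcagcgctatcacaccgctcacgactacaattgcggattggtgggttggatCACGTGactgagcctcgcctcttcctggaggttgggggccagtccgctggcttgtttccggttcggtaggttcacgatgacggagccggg
Mnt: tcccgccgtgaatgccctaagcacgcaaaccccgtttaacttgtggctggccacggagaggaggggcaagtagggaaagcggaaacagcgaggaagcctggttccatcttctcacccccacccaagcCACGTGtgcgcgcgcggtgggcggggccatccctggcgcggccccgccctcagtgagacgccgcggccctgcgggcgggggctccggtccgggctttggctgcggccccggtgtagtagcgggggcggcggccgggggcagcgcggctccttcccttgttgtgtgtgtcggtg
Mxd4: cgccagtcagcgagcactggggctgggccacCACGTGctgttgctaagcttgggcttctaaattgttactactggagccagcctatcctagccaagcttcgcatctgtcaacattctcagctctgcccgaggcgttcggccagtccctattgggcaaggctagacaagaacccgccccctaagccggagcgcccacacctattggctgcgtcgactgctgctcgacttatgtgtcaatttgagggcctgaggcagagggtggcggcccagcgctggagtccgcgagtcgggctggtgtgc
Mycn: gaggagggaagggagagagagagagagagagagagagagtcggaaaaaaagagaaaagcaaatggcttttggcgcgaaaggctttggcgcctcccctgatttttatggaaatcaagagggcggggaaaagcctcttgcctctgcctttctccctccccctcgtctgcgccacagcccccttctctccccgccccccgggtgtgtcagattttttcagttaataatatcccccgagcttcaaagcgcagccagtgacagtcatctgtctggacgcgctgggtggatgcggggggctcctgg

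The E-box of *Max* starts 3 bases before its RefSeq TSS, that of *Mlx* 40 bases before, that of *Mnt* 123 bases before and that of *Mxd4* 219 bases before. All 300 bases of the *Max*, *Mlx*, *Mnt* and *Mycn* windows lay inside an H3K56ac peak, and no base of the *Mxd4* window did. A match to the motif describes the sequence and is not evidence that a factor binds there.

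Of the 10 genes, 6 had a peak with at least 1 base within 1 kb of an annotated TSS (hereafter TSS peak). These were *Myc*, *Mycn*, *Max*, *Mnt*, *Mga* and *Mlx*, while *Mycl*, *Mxd1*, *Mxd4* and *Mxi1* had none. The share of 60% stands beside 35.7% of all protein-coding genes. All 10 promoters were rich in CpG, with observed over expected CpG ratios of 0.674 to 0.873 over a window reaching 500 bp up- and downstream of the gene's 5′ end, against a threshold of 0.6. Among the 10083 CpG-rich genes 60.4% had a TSS peak, so the share in the network was near the background of genes with such promoters. Both shared partners had a TSS peak, as did 2 of the 3 activators (66.7%) and 2 of the 5 antagonists (40%).

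The marked and unmarked genes of the network overlapped in the sequence properties of their promoters. The CpG ratio was 0.674 to 0.873 in the 6 genes with a TSS peak and 0.754 to 0.848 in the 4 without. GC content within 500 bp of the 5′ end was 57.3 to 65.4% and 57.4 to 72.7%. Repeats, over which reads with a single location are scarce, took 2.65 to 17.7% and 0 to 23.5% of the bases within 1 kb of the 5′ end. The highest repeat share, 23.5%, was that of *Mxi1*, and *Mxd1* had none.

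The 2 marked activators carried TSS peaks of different width. *Myc* (ENSMUSG00000022346.15, GRCm38 chr15:61985391-61990374, plus strand), the founding member and a LIF target, had a peak of 2305 bp at chr15:61984680-61986984. It ran from -711 to 1593 bp around the 5′ end of the gene, held 4 of the 6 annotated TSS and covered 32.0% of the gene body. Of all genes with a TSS peak, 21.3% had one as wide or wider.

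*Mycn* (ENSMUSG00000037169.15, chr12:12936093-12941914, minus strand), which is required for embryonic development, had the widest TSS peak of the network. At chr12:12936996-12943389 it was 6394 bp wide, which is 4.74 times the median of 1348.5 bp over the 7836 genes with a TSS peak. Only 0.434% of those genes had a TSS peak as wide or wider. It began at -1475 bp from the 5′ end, held all 3 annotated TSS and covered 84.5% of the gene body, so that it followed the gene nearly from end to end.

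*Mycl* (ENSMUSG00000028654.13, chr4:122995652-123002485, plus strand), the activator first found amplified in lung cancer, had no peak in its body or within 1 kb of its 5 TSS. The nearest peak to a TSS lay 16823 bp away and was the promoter peak of its neighbour *Trit1*, a transfer RNA modification enzyme.

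The shared partners had TSS peaks of ordinary width, centred close to the start site. *Max* (ENSMUSG00000059436.13, chr12:76937269-76962201, minus strand), the partner of every activator, had a peak of 1933 bp at chr12:76961273-76963205. *Mlx* (ENSMUSG00000017801.15, chr11:101087277-101092207, plus strand) had one of 1573 bp at chr11:101086532-101088104. As wide or wider were the TSS peaks of 32.4% and 43.6% of genes with one. Of the *Max* peak 48.1% lay downstream of the 5′ end, and of the *Mlx* peak 52.6%. Among the 4325 genes for which this share was taken, the quartiles were 45.9, 58.4 and 74.1%. The peak held 4 of 7 TSS of *Max* and 4 of 5 TSS of *Mlx*.

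Of the antagonists, *Mnt* and *Mga* were marked, and the 3 genes of MXD proteins chosen for the network, *Mxd1*, *Mxd4* and *Mxi1*, were not. MXD genes as a class were not unmarked, since *Mxd3*, which was left out of the network list, had a TSS peak of 2154 bp. *Mnt* (ENSMUSG00000000282.12, chr11:74830920-74845725, plus strand), the antagonist that dividing cells express together with MYC, had 2 TSS peaks. The first, at chr11:74829236-74835026, was 5791 bp wide and ran from -1684 to 4106 bp around the 5′ end. This is 4.29 times the median over genes with a TSS peak, and 0.804% of such genes had one as wide or wider. The second, of 2500 bp at chr11:74837117-74839616, covered an internal TSS 6548 bp into the gene. A gap of 2090 bp separated them, and together they covered 44.6% of the gene body.

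*Mga* (ENSMUSG00000033943.15, chr2:119897228-119969581, plus strand) had the narrowest TSS peak of the network, 1333 bp at chr2:119897169-119898501. It lay almost wholly inside the gene, with 95.6% of its bases downstream of the 5′ end, and covered 1.76% of this long gene. It held the 4 TSS at the 5′ end and none of the 8 further inside. Of genes with a TSS peak, 50.5% had one as wide or wider.

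*Mxd1* (ENSMUSG00000001156.9, chr6:86647042-86669161, minus strand) and *Mxd4* (ENSMUSG00000037235.13, chr5:34173883-34187720, minus strand), both raised as cells leave the cycle to differentiate, and *Mxi1* (ENSMUSG00000025025.14, chr19:53310518-53375810, plus strand) held no peak anywhere in the gene. The peak nearest to a TSS of *Mxd1* was 14343 bp away, at the promoter of *Snrnp27*, a spliceosome component. For *Mxi1* it was 19468 bp away, at *Smndc1*, another splicing factor. For *Mxd4* it was 4870 bp from an internal TSS, in a peak of 2143 bp that began 3417 bp beyond the 3′ end of the gene, at the shared promoter of *Haus3* and *Poln*. The 9 annotated TSS of *Mxi1* and the 4 each of *Mxd1* and *Mxd4* were therefore all without a peak. Of the 58 annotated TSS of the network, 21 lay inside a peak.

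**Figure D1:**
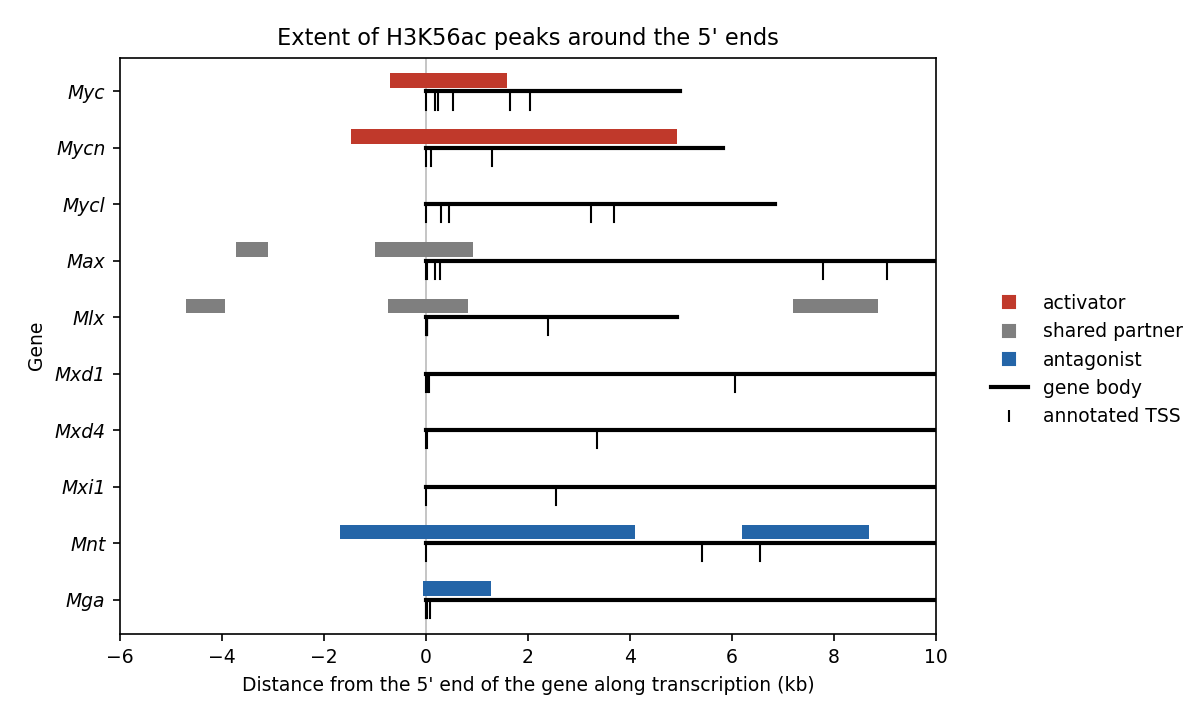
Extent of each TSS peak relative to the 5′ end of its gene (x axis, kb, positive into the gene) for the 10 network genes (rows), with the gene body and the annotated TSS marked and peaks coloured by group. Flanking peaks in the plotted range (1 of *Max*, 2 of *Mlx*) are drawn too. Of the peaks that cover a 5′ end, those of *Mycn* and *Mnt* reach farthest into the gene, to 4918 and 4106 bp, the second *Mnt* peak spans 6197 to 8696 bp, and the *Mycl*, *Mxd1*, *Mxd4* and *Mxi1* rows hold no TSS peak.

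The activators and the antagonists overlapped in TSS peak width. The activator widths were 2305 and 6394 bp, with a median of 4349.5 bp. The antagonist widths, taking the wider *Mnt* peak, were 1333 and 5791 bp, with a median of 3562 bp. The difference of 787.5 bp is smaller than the distance between the genes within either group. When both *Mnt* peaks were summed the difference turned to -462.5 bp. It rose to 2433 bp when a TSS peak needed its midpoint within 1 kb of a TSS, which left the antagonist median at 1916.5 bp, and to 2305 bp when unmarked genes were counted at 0 bp. TSS peaks of at least 3 kb were found at 1 activator and 1 antagonist, *Mycn* and *Mnt*, and at 3.35% of all protein-coding genes. The median over the 6 marked genes was 2119 bp, between the median and the upper quartile of all genes with a TSS peak, 1348.5 and 2169 bp. Among CpG-rich genes with a TSS peak those values were 1454 and 2227.5 bp.

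**Figure D2:**
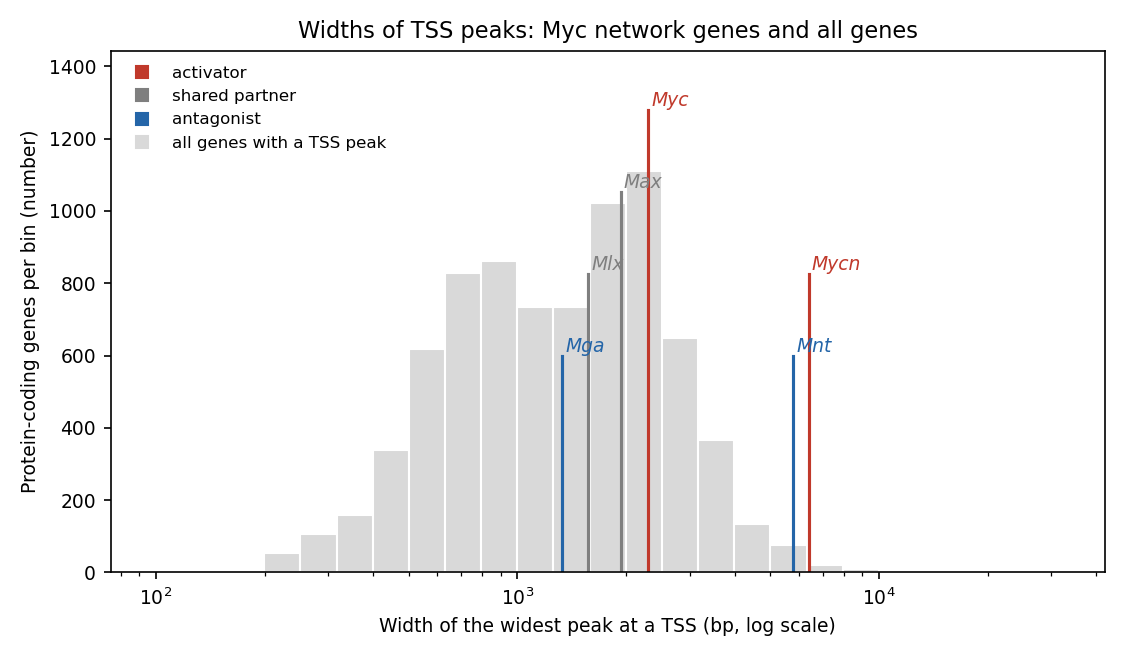
Width of the widest TSS peak (x axis, bp, log scale) of the 7836 protein-coding genes that have one, as a histogram of genes (y axis, number of genes), with the 6 marked network genes as labelled lines whose height has no meaning. *Mycn* at 6394 bp and *Mnt* at 5791 bp stand in the right tail, and *Mga* at 1333 bp stands beside the median of 1348.5 bp.

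In the 100 kb on either side of the genes, 30 peaks lay outside the gene bodies. *Max*, *Mxi1* and *Mlx* had 5 each, *Mnt* 4, *Myc*, *Mxd1* and *Mga* 3 each, *Mycl* and *Mxd4* 1 each and *Mycn* none. The median was 1 over the activators (0 to 3), 3 over the antagonists (1 to 5) and 5 over the shared partners. The ranges of activators and antagonists overlapped. Over all protein-coding genes the median was 1 and the quartiles 0 and 3, and over CpG-rich genes the median was 2 and the quartiles 1 and 4. *Mycn* belonged to the 33.7% of genes with no flanking peak.

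Neighbouring promoters differ in number between these windows, and promoter peaks of neighbours made up 18 of the 30 flanking peaks. The flanks of *Myc* and *Mycn* hold no TSS of another protein-coding gene, those of *Mycl* 2, and those of the antagonists 1 to 5, 18 in all. The flanks of *Mlx* hold 11, and 6 of them had a TSS peak. Over all protein-coding genes the median was 4, with quartiles of 2 and 7. Of 32 neighbours of the network, 21 (65.6%) had a TSS peak themselves, beside 35.7% of all protein-coding genes and 60.4% of CpG-rich ones. Some of these neighbours share a peak, such as *Haus3* with *Poln* and *Retreg3* with *Tubg1*, so marked genes outnumber marked promoters. The promoter peaks of neighbours were 460 to 2653 bp wide, with a median of 1623 bp. The part of gene density in the difference between activators and antagonists was not tested.

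**Figure D3:**
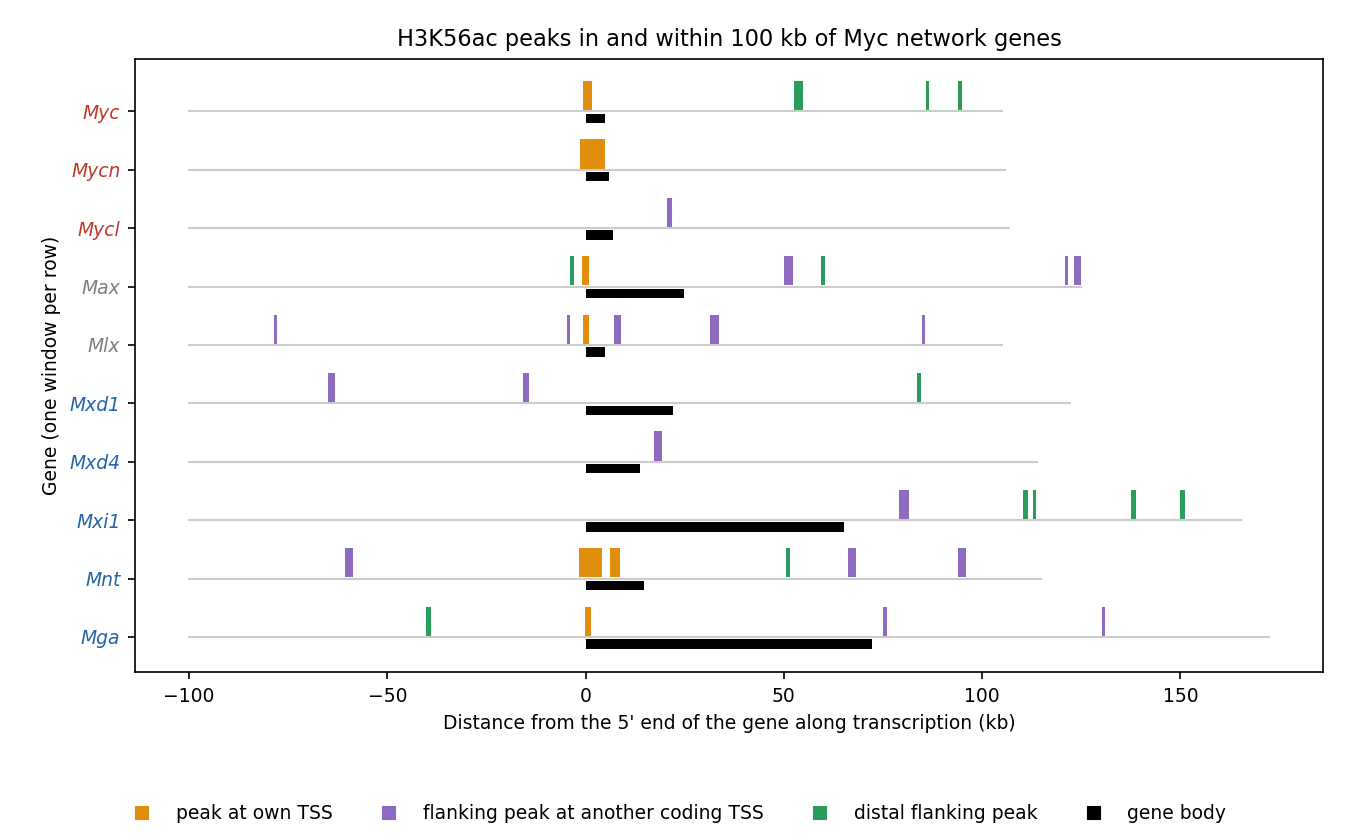
H3K56ac peaks in the window of each network gene, from 100 kb upstream of the gene to 100 kb downstream, with position along the x axis in kb from the 5′ end. Peaks are coloured by place, those narrower than 0.9 kb are drawn at 0.9 kb so as to be visible, and the *Mycn* window shows its TSS peak alone.

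The remaining 12 flanking peaks were distal, with no base within 3 kb of a TSS of a protein-coding gene. They were 273 to 2200 bp wide, with a median of 909 bp. *Mxi1* had 4 of them, *Myc* 3, *Max* 2, and *Mxd1*, *Mnt* and *Mga* 1 each. So 6 of the 10 genes had at least 1, against 29.4% of all protein-coding genes. The share among CpG-rich genes, to which all 10 belong, was not taken. The median number of distal peaks was 0, with quartiles of 0 and 1, both over all protein-coding genes and over CpG-rich ones. Activators held 3 and antagonists 7. Of the 12, 10 lay outside the body of every protein-coding gene. When the TSS of every annotated gene counted, noncoding ones included, 8 distal peaks were left. The others, of *Myc* and *Mxi1*, lay within 3 kb of a noncoding TSS.

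All 3 flanking peaks of *Myc* were distal and lay downstream, in *Pvt1*, a long noncoding RNA gene next to *Myc* that is often amplified with it in tumours. The widest, 2200 bp at chr15:62038023-62040222, covered the start of *Pvt1*, 47649 bp beyond the end of *Myc*. The others were 370 bp wide at 81081 bp from the gene and 273 bp wide at 89265 bp, the last 334 bp from the TSS of the noncoding gene *Gm27782*. The 4 distal peaks of *Mxi1* lay downstream as well, at 44955, 47473, 72295 and 84605 bp from the gene, and were 1382, 836, 1104 and 1276 bp wide. The farthest covered the start of a noncoding gene, *4833407H14Rik*. *Max* had a distal peak of 627 bp at chr12:76965299-76965925, 3098 bp upstream of its own TSS. Its other distal peak, of 653 bp, lay within *Fntb*, which encodes the beta subunit of farnesyltransferase.

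Where the window of a gene held a wider peak than its own TSS peak, it belonged to a neighbouring promoter. The widest peak in the *Max* window was one of 2134 bp at *Fntb*. In the *Mlx* window it was one of 2417 bp at *Retreg3* and *Tubg1*, the latter the gene of gamma-tubulin. The TSS peaks of *Myc*, *Mycn*, *Mnt* and *Mga* were wider than every flanking peak of the same gene. In the unmarked genes the widest peaks were those of *Trit1* (1375 bp) for *Mycl*, *Gmcl1* (1677 bp) for *Mxd1*, *Haus3* and *Poln* (2143 bp) for *Mxd4* and *Smndc1* (2653 bp) for *Mxi1*.

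Of the 30 flanking peaks 7 were upstream and 23 downstream, so 23.3% lay upstream. Over all protein-coding genes 49.1% of flanking peaks did. *Myc* and *Mxi1* had 0 upstream and 3 and 5 downstream, and *Mxd1* alone had more upstream, with 2 against 1. The share rests on few peaks, clustered in some windows, and was not taken at other flank lengths. Farther out, up to 200 kb, the added peaks of *Mxd4*, *Mnt* and *Mga* all lay upstream. Those of *Myc*, *Mycn*, *Max* and *Mxi1* all lay downstream, and *Mycl*, *Mxd1* and *Mlx* gained peaks on both sides. The share may therefore depend on the flank length.

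**Figure D4:**
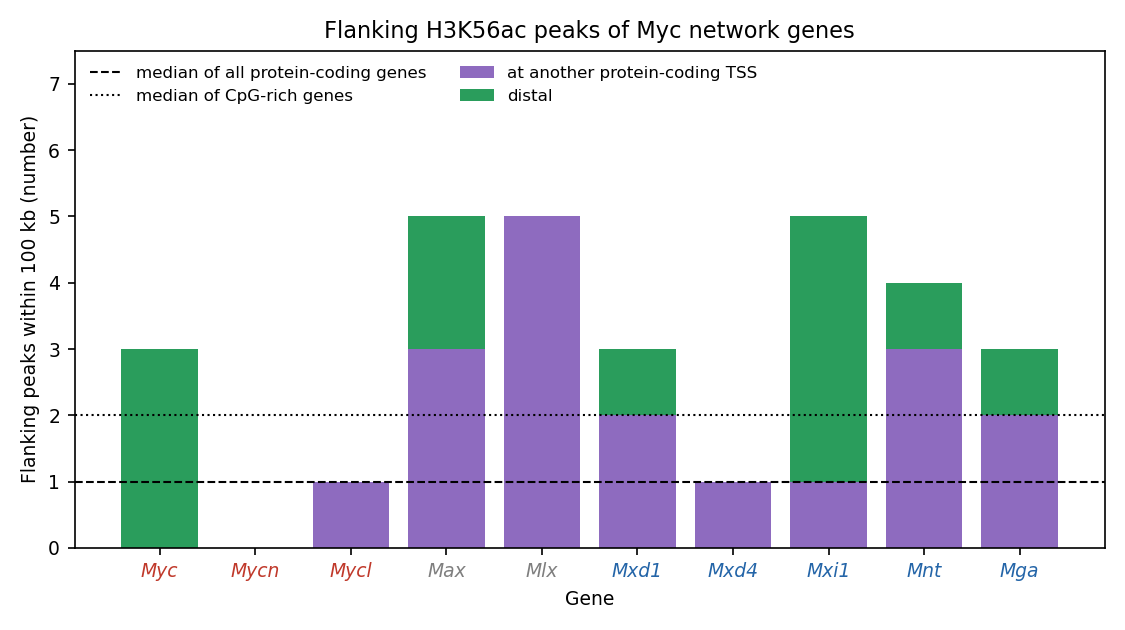
Number of flanking peaks (y axis) of each network gene within 100 kb, stacked into promoter peaks of neighbours and distal peaks, with lines at the medians of all protein-coding genes (1) and of CpG-rich ones (2). *Mycn* has 0, *Myc* has 3 that are all distal, and *Mlx* has 5 that all lie at neighbouring promoters.

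The limit of 100 kb left out peaks just beyond it. The farthest flanking peak inside it lay 98330 bp from *Max*. Just outside lay a further peak of 1489 bp in *Pvt1*, 100984 bp from *Myc*, and one of 738 bp at 108605 bp. *Mycn*, with none within 100 kb, had 4 distal peaks of 394 to 677 bp between 131748 and 150868 bp downstream, near the noncoding gene *Platr19*. *Mycl* gained promoter peaks at *Ppt1* and *Ppie*. With 200 kb on either side, *Myc* had 5 distal flanking peaks, *Mycn* 4 and *Mycl* 0, so the activator median was 4 and the antagonist median 2.

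The E-box was next searched in the peaks themselves, beside 3 other motifs. CACGTG, which equals its reverse complement, lay in the central 400 bp of 3 of the 7 TSS peaks of the network, those of *Max*, *Mlx* and the first of *Mnt*, against 9.53% of the 7311 TSS peaks of all genes. In whole peaks, 4 of the 7 held a match, against 27% of all TSS peaks. Their 8 matches, 4 of them in the first *Mnt* peak, make 0.366 per kb against 0.244 per kb over all TSS peaks. Relative to the annotated 5′ end of the gene, which differs from the RefSeq start used above, *Max* had matches at -50 and -325 bp and *Mlx* had 1 at -27 bp. *Mnt* had 4, at -119 bp before the gene, at 476 bp in an exon and at 1382 and 2964 bp in introns. *Mga* had 1 in an intron at 1037 bp. The *Myc* and *Mycn* peaks held no E-box, nor did the second *Mnt* peak.

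The related sequence CACGCG, searched on both strands, stood in the central 400 bp of 2 of the 7 peaks, against 15% over all TSS peaks. It stood in 6 of the 7 whole peaks with 13 matches, against 34%, which is 0.596 per kb against 0.345 per kb. The STAT motif TTCNNNGAA, which equals its reverse complement, stood in the central 400 bp of 1 of the 7 peaks, against 10.6%. In whole peaks it stood in 4 of the 7 with 6 matches, against 32.2% of all TSS peaks. Per kb, which allows for the width of the peaks, this is 0.275 matches against 0.299 over all TSS peaks. The 4 peaks were those of *Mycn*, with matches at -380 and -1455 bp, and *Max* and both peaks of *Mnt*. CTTTGAT, the sequence bound by TCF factors of the WNT pathway, was searched on both strands and matched in none of the 7 whole peaks, against 15% of all TSS peaks. The *Myc* peak held none of the 4 motifs. No 2 of these motifs can share the same bases in full, though neighbouring matches may overlap at their ends.

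Lists of genes that work with the network were counted in the same way, and all differences between their shares are descriptions without a test. Of 16 known targets of MYC, 15 had a TSS peak (93.8%), beside the 35.7% of all genes and the 60.4% of CpG-rich ones. Their median width was 2549 bp. The widest, 4568 bp, was at *Hspd1*, a mitochondrial chaperone, and the cyclin gene *Ccnd2* alone had none. All 11 CpG-rich genes among them were marked. In 7 of the 15 marked genes the central 400 bp of a TSS peak held CACGTG, beside 10.5% of the 7836 genes with a TSS peak. MYC binds this sequence, so a list of its known targets may favour it by construction. The list was also picked by name, with earlier results of these data known. Of 9 corepressor genes used by MXD and MNT proteins, 7 had a TSS peak (77.8%), with a median width of 2067 bp. All 9 were CpG-rich, a class in which 60.4% had one. *Sin3a*, the scaffold of the complex, had the widest at 4719 bp, and its paralog *Sin3b* had none, like *Sap18*.

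Of 12 genes for cofactors and regulators of MYC, 9 had a TSS peak (75%), beside 35.7% of all protein-coding genes. Among them were 5 of the 8 CpG-rich ones, a share near the 60.4% of all CpG-rich genes. CpG content was taken at the 5′ end of the gene, while a TSS peak may lie at any of its TSS. The median width was 1410 bp. The widest was 3043 bp at *Wdr5*, a subunit of histone methyltransferase complexes, and *Ep400*, *Zbtb17* and *Aurka* had none. Of 10 partners of MGA in the Polycomb complex PRC1.6, 6 had a TSS peak (60%), with a median of 1381.5 bp. All 10 were CpG-rich, and the share was near the 60.4% of all CpG-rich genes. *Cbx1*, a heterochromatin protein gene, had the widest at 1898 bp, and the unmarked genes were *Pcgf6*, *E2f6*, *Cbx3* and *Yaf2*. Among the remaining family members, *Mxd3* had a TSS peak of 2154 bp, while *Mlxip* and *Mlxipl*, the glucose-responsive partners of MLX, had none.

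**Figure D5:**
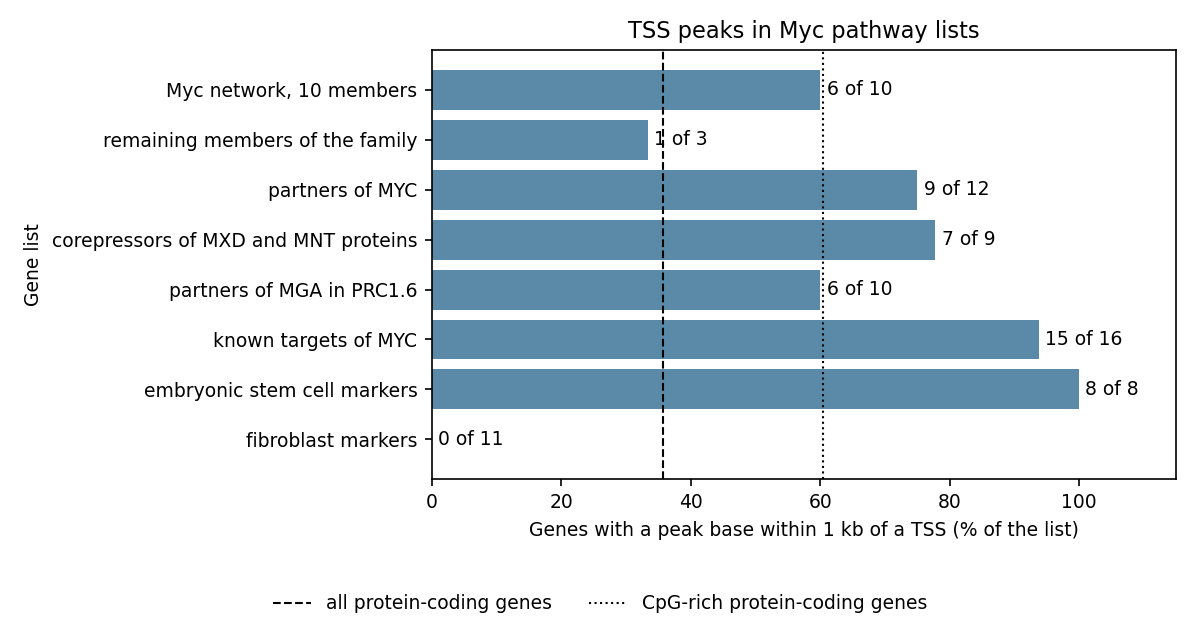
Percent of genes with an H3K56ac TSS peak (x axis) in the Myc network, the lists of related genes and the 2 marker lists, with the number of marked genes and the list size beside each bar. The dashed line is the 35.7% of all protein-coding genes and the dotted line the 60.4% of CpG-rich ones, and the MYC targets stand at 93.8% against 60% for the network.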

How the data were processed

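Chromatin of mESCs was profiled by ChIP-seq for H3K56ac in 4 libraries, with 2 input libraries. The authors trimmed the reads, aligned them to mm10 with bowtie, keeping reads with a single location, removed duplicates, called peaks with MACS2, removed blacklisted regions and merged overlapping peaks. Keeping such reads alone leaves repeats thinly covered, and merging hides the library, height and depth of a peak, so no interval on a peak is given. The deposited file holds chromosome, start and end of each merged peak, and its deposited score column is 0 throughout and carried no measurement. Neighbouring peaks were at least 1000 bp apart, so gaps between peaks may have been bridged in the merging as well.

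Groups were taken from the sample titles. Starts were converted to positions counted from 1. All peaks lay within the GRCm38 chromosomes, and genes and TSS were those of GENCODE M21. A TSS peak has a base within 1 kb of any TSS of the gene. A flanking peak has a base within 100 kb of the gene and none in it, and is distal with no base within 3 kb of a protein-coding TSS. CpG-rich means a ratio above 0.6. Calculations used Python 3.11.15 and numpy 2.4.6, and figures matplotlib 3.10.9. On simulated data, the width of the placed TSS peak was recovered at 200 of 200 genes, and the number of placed flanking peaks at 200 of 200. The placed TSS peaks all covered the 5′ end, so the 1 kb rule was not tried. No statistical test was run. The alternatives changed the TSS set, the overlap rule, the flank length, the definition of distal and the motif window.

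The network genes and the other lists were chosen with earlier results of these data known. Named were the 10 network genes, the unmarked genes and the widest TSS peak of each list, the TSS nearest to flanking peaks of the activators, and the gene at the widest peak of each window. Other genes beside a flanking peak were named after their values were seen. Read counts per library are not analysed here.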

Additional observations from a re-analysis of the deposited data

How the results depend on the processing

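No paired analysis was possible because no peak is assigned to a replicate, and for the same reason no library could be left out. The count of 6 network genes with a TSS peak was the same under all 6 alternatives, and of 58 alternative values 38 equalled the main value. The width difference of activators minus antagonists, 787.5 bp, turned to -462.5 bp with widths summed at the TSS. It was 2433 bp with peak midpoints (antagonist median 1916.5 bp in place of 3562 bp) and 2305 bp with unmarked genes counted at 0 bp (antagonist median 0 bp, activator median 2305 bp in place of 4349.5 bp). With flanks of 50 kb the antagonist median of flanking peaks was 1, the difference of activators minus antagonists 0, and the network held 7 distal peaks in place of 12. At 100 kb it held 8 when the TSS of any annotated gene counted. With flanks of 200 kb the median number of flanking peaks was 4 for activators and 6 for antagonists, the distal total was 21, the activator median of distal peaks was 4 in place of 0, and their difference from the antagonists turned from -1 to 2. These changes follow from the construction of each alternative, which adds or drops peaks or genes. Per cluster of neighbouring protein-coding TSS, the antagonist median was 0.333 flanking peaks (0.188 to 5) and *Mycl* had 0.25, while *Myc* and *Mycn* have no such TSS, so the activators had no median. A stricter peak threshold could be tried only by width, since the file gives no peak height.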
